A study of Bos taurus with 16 samples.

Results

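The comparison described here sets the corpus luteum of cattle at day 17 of pregnancy against the corpus luteum at day 14. It takes the 8 samples of these 2 days out of 16 in the series, 4 per day, and all 204 miRNA probes measured in them. Every animal was bred naturally and then inseminated, and only those found to be pregnant were used. No treatment, genotype, breed or age is given in the sources used here, and there was no group of non-pregnant animals, so age of the corpus luteum and presence of an embryo cannot be told apart. MicroRNAs were counted on the NanoString platform, which hybridises a colour-coded probe to each miRNA and counts the probes without amplification. Replicates 1 and 2 of each day were counted in run 1, and replicates 3 and 4 in run 2.

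The corpus luteum is the gland that forms from the ovulated follicle and makes progesterone. In cattle the elongating embryo secretes interferon tau between these days, which stops the uterine prostaglandin pulses that would otherwise end the life of the gland. This is the maternal recognition of pregnancy. MicroRNAs are short RNAs that lower the output of target mRNAs. Many members of a family share the seed, the bases that pair with the target, and members of a genomic cluster are often cut from a single transcript. The families here were grouped by name, and some hold different seeds, such as miR-99 and miR-100 with miR-125, or both arms of miR-30 hairpins.

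No miRNA passed the threshold at day 17 against day 14. Of 204 probes, 0 (0%) had an adjusted p under 0.05 by limma with the run held in the model, and 5 (2.45%) had an unadjusted p under 0.05, where 10.2 are expected by chance. With the replicate number as a block in place of the run, 8 had one and 0 were called. The smallest adjusted p was 0.565. Differences were small: 105 probes (51.5%) had higher and 99 (48.5%) lower values at day 17, the median of all differences was 0.01 on the log2 scale, and the median size was 0.20. A difference above 0.5 in size was found in 15 probes and one above 1 in 1 probe, miR-223-3p. With 4 samples a day single samples weighed heavily: leaving out 1 of them turned the sign or moved the value by over 1.5 times for 45 of the 55 miRNAs chosen for naming and for 16 of the 17 list medians.

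The 95% interval of the difference lay wholly between -1 and 1 on the log2 scale, that is within 2-fold either way, for 158 of the 204 probes (77.5%). These intervals are for 1 probe at a time. The distance from the estimate to either bound had a median of 0.63 log2 units and ran from 0.43 to 1.29. The other 46 probes had an interval that reached 2-fold, 30 of them on the lower and 17 on the higher side. All 9 probes of the let-7 and miR-98 family and all 7 of the miR-30 family were among the 158, and so were 17 of 18 probes listed for the DLK1-DIO3 cluster.

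**Figure D1:**
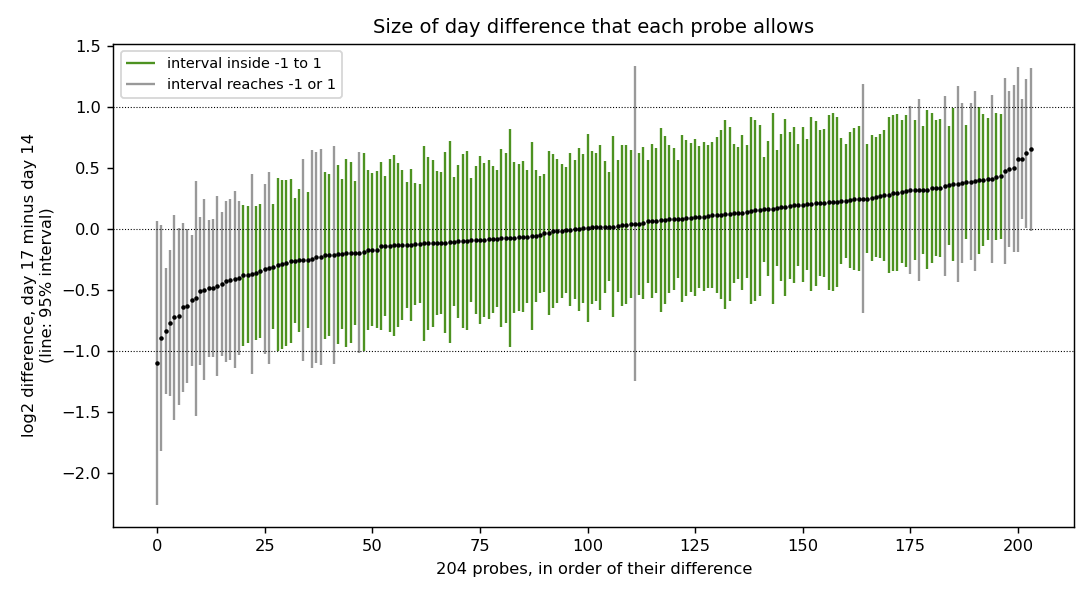
Log2 difference of day 17 minus day 14 for each of the 204 probes, in order of size (points), with its 95% interval (vertical lines). The 158 green intervals lie inside -1 to 1, and the 46 grey ones reach one of these bounds.

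The totals of the samples differed more between runs than between days. They were 175197 and 213338 normalized counts in the day 14 samples of run 1, 269804 and 249516 in the day 17 samples of run 1, 403912 and 523985 at day 14 in run 2, and 411569 and 428598 at day 17 in run 2. The day means were 329108 ± 163976 (SD, n = 4) and 339872 ± 93250, and an exact two-sided permutation test within runs gave p = 0.833, where its 36 arrangements cannot go below 0.0556. Probes without a bovine miRNA gene of their name or number (38 of 204) were looked at on their own, since what they capture in cattle is not known. Their median was 258 and 184 normalized counts at day 14 and 124 and 160 at day 17 in run 1. In run 2 it was 49.9 and 42.2 at day 14 and 68.2 and 40.4 at day 17. Day 14 replicate 1 thus combined the lowest total with the highest such median, and in it alone of the 8 samples the probes with a bovine gene had a lower median (163) than those without.

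Of the 204 probes, 2 (0.98%) had a higher value and an unadjusted p under 0.05, miR-145-5p and miR-125b-5p, both abundant. miR-145-5p, which is characteristic of smooth muscle and pericytes, had 2157 and 2814 normalized counts at day 14 and 3682 and 5194 at day 17 in run 1. In run 2 it had 6635 and 7302 at day 14 and 7454 and 10060 at day 17. Within each run both day 17 samples lay above both day 14 samples, while over both runs the days overlapped. The log2 difference was 0.57 (SE 0.24, adjusted p = 0.963), a ratio of 1.49, with 0.83 in run 1 and 0.31 in run 2. Leaving out 1 sample at a time gave 0.41 to 0.69.

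miR-125b-5p, a relative of the worm miRNA lin-4, had 6051 and 8474 normalized counts at day 14 and 10960 and 18886 at day 17 in run 1. In run 2 it had 22731 and 17520 at day 14 and 20362 and 27073 at day 17. The days were separated in run 1 and overlapped in run 2. Its log2 difference was 0.62 (SE 0.29, adjusted p = 0.963), with 1.01 in run 1 and 0.23 in run 2, and it ran from 0.39 without day 14 replicate 1 to 0.83 without day 14 replicate 3. miR-542-5p (0.65, SE 0.32), miR-455-3p (0.43, SE 0.25) and miR-497-5p (0.43, SE 0.25) came next, each at an adjusted p of 0.963 by limma.

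A lower value with an unadjusted p under 0.05 was found for 3 probes (1.47%), and the 5 lower values with the smallest p were all of probes without a bovine gene of their name or number. miR-577 had 55.8 and 36 normalized counts at day 14 and 25.8 and 28.6 at day 17 in run 1, and 34.5 and 30.8 at day 14 and 15.3 and 16.9 at day 17 in run 2. It was the 1 probe of 204 (0.49%) for which all day 17 samples lay below all day 14 samples, and none lay the other way (0%). Its log2 difference was -0.84 (SE 0.25, adjusted p = 0.565), and -0.94 to -0.70 with 1 sample left out. These are low counts, since the lowest value of any probe in these samples was 12.0 to 15.9. A single probe reads both miR-548z and miR-548h-3p, and it had -0.77 (SE 0.29). The others had -0.59 (miR-548ah-5p, SE 0.26), -0.63 (miR-587, SE 0.31) and -0.72 (miR-522-3p, SE 0.35), and all 4 had an adjusted p of 0.963 by limma. As a class the 38 probes had a median of -0.21, with 28 lower, against 0.05 for the 166 others. The class median was -0.58 in run 1 and near 0 in run 2, and it became 0.08 when day 14 replicate 1 was left out. Without that sample miR-577 had -0.70 and the probe of miR-548z and miR-548h-3p -0.58.

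**Figure D2:**
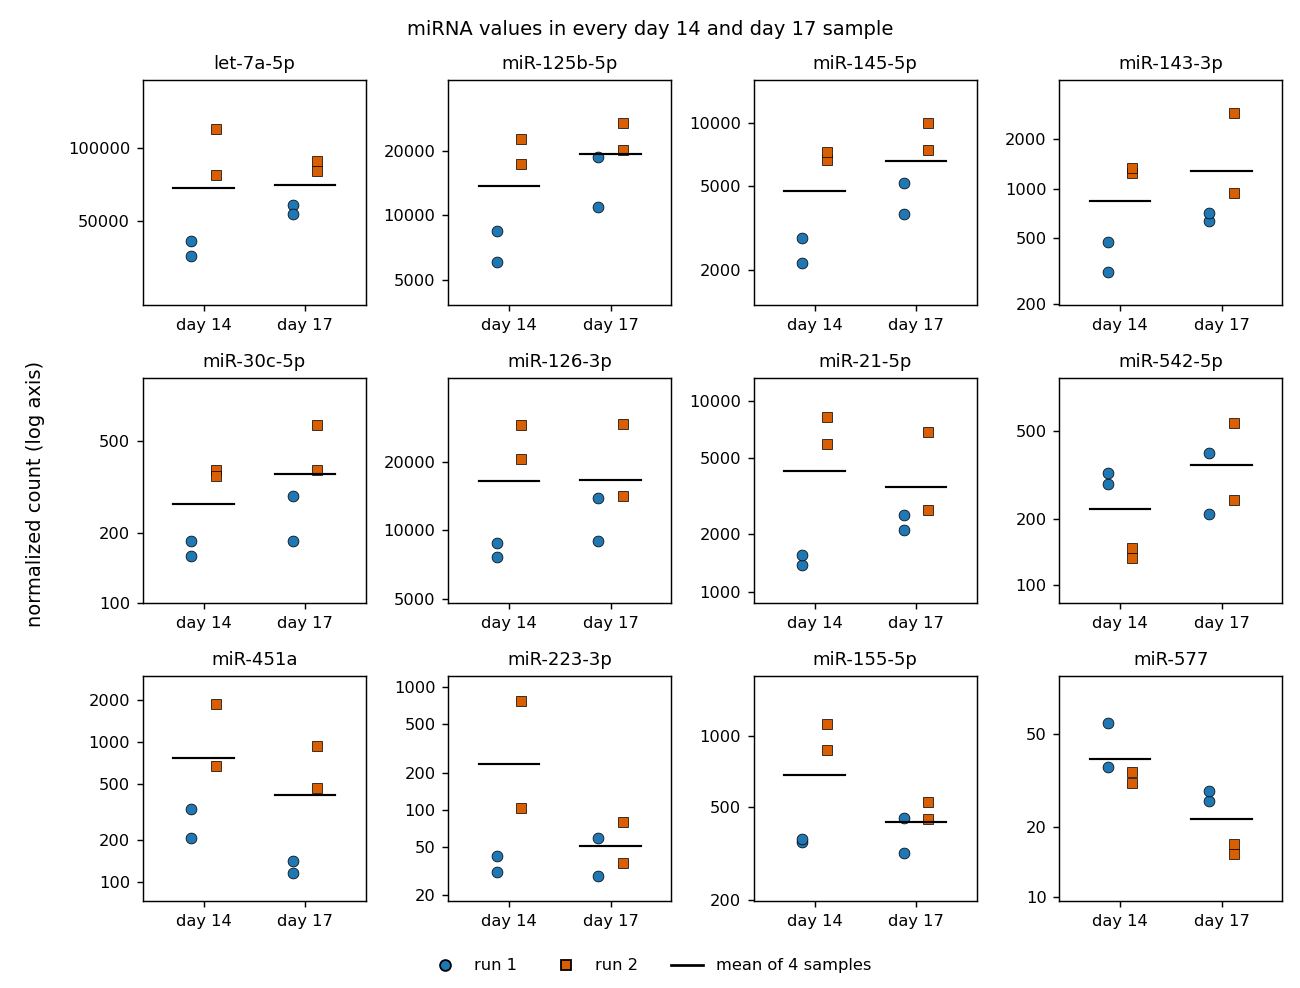
Normalized counts (log axis) of 12 miRNAs in each of the 4 day 14 and 4 day 17 samples, with circles for run 1, squares for run 2 and a line at the mean of 4 samples. miR-577 is the 1 miRNA whose days do not overlap; for miR-145-5p the days separate within each run only; for miR-21-5p and miR-126-3p they overlap.

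A looser description asks that both day 17 samples lie on the same side of both day 14 samples in run 1 and again in run 2. It was met by 4 probes with higher values (1.96% of 204) and 4 with lower values (1.96%). The higher ones were miR-145-5p, let-7c-5p (0.38, SE 0.23), miR-30c-5p (0.40, SE 0.26) and miR-197-5p (0.36, SE 0.24). For miR-30c-5p the gap was only 374.8 over 374.6 normalized counts in run 2 and 184.8 over 183.8 in run 1. The lower ones were miR-577, miR-548ah-5p, miR-587 and miR-216b-5p (-0.48, SE 0.27), of which only miR-216b-5p has a bovine gene. miR-197-5p and miR-216b-5p are named because they met this description, after their values were seen.

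Among families, the let-7 and miR-98 family, miRNAs that accumulate in differentiated cells, made up nearly the same share of the total on both days. Its share was 49.3% ± 3.31 at day 14 (SD, n = 4) and 50.8% ± 4.90 at day 17, with p = 0.611 by the exact permutation test within runs. Of 9 probes, 8 had higher values and 0 were called, with a median log2 difference of 0.17 against 0.01 for all probes. The 51 probes with the highest counts also had a median of 0.17, with 0.52 in run 1 and -0.07 in run 2. let-7a-5p had 35548 and 41263 normalized counts at day 14 and 57805 and 53144 at day 17 in run 1, and 77342 and 120106 against 88351 and 80566 in run 2. The days separated in run 1 (0.53) and overlapped in run 2 (-0.19). The family median was 0.53 in run 1 and -0.19 in run 2. It was 0.03 without day 14 replicate 1 or without day 17 replicate 1, 0.38 without day 14 replicate 4, and -0.03 after quantile normalization. let-7b-5p differed by 0.23 (SE 0.25), let-7d-5p by 0.13 (SE 0.28) and let-7i-5p by -0.05 (SE 0.23).

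The miR-99/100 and miR-125 family, whose genes lie beside let-7 genes, had 5 of 5 probes higher, with 0 called and a median of 0.34, which was 0.11 without day 14 replicate 1. miR-125b-5p gave the highest of these values and miR-99b-5p the lowest (0.02, SE 0.26). The median was 0.91 in run 1 and near 0 in run 2. miR-125b-5p, miR-125a-5p, miR-99a-5p and miR-100-5p are among the 51 probes with the highest counts. Of those 51, 38 had positive differences, against 51.5% of all 204 probes, and their median was 0.52 in run 1 and -0.07 in run 2. The pairs let-7c-5p and miR-99a-5p (0.38 and 0.20) and let-7a-5p and miR-100-5p (0.17 and 0.35) lie within 10 kb of each other in the cattle assembly and had positive differences, as did let-7e-5p, miR-99b-5p and both arms of miR-125a. let-7a-5p is also made from other loci, so its probe does not report on a single cluster.

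Smooth muscle, pericyte and fibroblast miRNAs mark the cells of the vessel wall and stroma, which grow into the gland as it forms. All 6 probes had positive differences, 1 of them with an unadjusted p under 0.05 and 0 called. Over all 204 probes 51.5% had a positive difference and 2.45% an unadjusted p under 0.05 by limma. All members but miR-199b-5p are among the 51 probes with the highest counts. Of those 51, 38 had positive differences, with a median of 0.52 in run 1 and -0.07 in run 2. The median of the 6 probes was 0.32, and it was 0.15 without day 14 replicate 1 and 0.60 without day 14 replicate 3. In run 1 it was 0.76, with all 6 positive, and in run 2 it was 0.14, with 4 of 6 positive. miR-143-3p, made from the same transcript as miR-145-5p, had 314 and 474 normalized counts at day 14 and 637 and 707 at day 17 in run 1. In run 2 it had 1245 and 1332 at day 14 and 938 and 2846 at day 17. Its difference was 0.57 (SE 0.37), the same as that of miR-145-5p to 2 decimals, but the run 2 days overlap, and the value was 0.25 without day 17 replicate 4. miR-199a-5p differed by 0.40 (SE 0.29) and miR-214-3p, from the same cluster, by 0.24 (SE 0.28). With 1 sample left out these ran from 0.13 to 0.71 and from 0.07 to 0.47. miR-199a/b-3p, read by 1 probe, had 2872 and 3733 against 5698 and 8195 in run 1, and 15961 and 8160 against 4405 and 9553 in run 2, giving 1.06 and -0.81. The summed level of the 6 probes ran from 6681 to 29066 normalized counts at day 14 and from 12014 to 26505 at day 17. In bulk tissue, a different number of cells of a type and a different amount of RNA per cell cannot be told apart.

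Endothelial miRNAs had joint values on both sides of 0, with 3 of 6 higher and 0 called. The runs were opposite: all 6 were higher in run 1, with a median of 0.59. In run 2, 0 of the 6 were higher, with a median of -0.59. miR-126-3p, the defining miRNA of endothelium, had 7633 and 8826 normalized counts at day 14 and 13917 and 8951 at day 17 in run 1, and 20517 and 29140 against 14112 and 29256 in run 2. Its days overlapped in run 2 and its difference was 0.09 (SE 0.31, 95% interval -0.55 to 0.73). The pair miR-221-3p and miR-222-3p, 2 neighbouring miRNAs that share a seed, had 0.07 (SE 0.30) and -0.07 (SE 0.30). Their values were opposite in the runs, with 0.85 and 0.74 in run 1 and -0.72 and -0.89 in run 2. miR-222-3p was among the 3 probes with the smallest p for a difference between runs.

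Blood cell and leukocyte miRNAs were mostly lower with both runs together, again without a call, but 4 of the 6 leukocyte probes were higher in run 1. miR-451a, the red cell miRNA, had 206 and 336 normalized counts at day 14 and 142 and 116 at day 17 in run 1, and 675 and 1877 at day 14 and 474 and 937 at day 17 in run 2. Its difference was -0.89 (SE 0.45, adjusted p = 0.963), with -1.03 in run 1 and -0.76 in run 2, and -0.52 without day 14 replicate 4. Its interval of -1.82 to 0.03 reached past a 2-fold lower level. Both day 17 samples lay below both day 14 samples in run 1, and the days overlapped in run 2. In run 1, 206 and 116 lay below their samples' medians of the probes without a bovine gene (258 and 160). The 336 and 142 lay above theirs (184 and 124). miR-451a measures red cells held in the tissue, and how blood was cleared from the samples is not given in the sources used here.

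miR-223-3p, the miRNA of neutrophils and monocytes, had 42.2, 30.7, 104 and 776 normalized counts in the 4 day 14 samples and 58.3, 28.6, 36.9 and 79.1 at day 17. Its difference of -1.10 (SE 0.56) was the largest of the 204 in size, and it rested on a single sample, being -0.19 without day 14 replicate 4. Its 4 values in run 1 lay below the samples' medians of the probes without a bovine gene (124 to 258). miR-155-5p, which is induced in activated immune cells, had 353 and 365 against 447 and 317 in run 1, and 1131 and 877 against 443 and 527 in run 2. The days overlapped in run 1 and separated in run 2, with 0.07 and -1.04, and the joint value was -0.49 (SE 0.27). Of 6 leukocyte probes 5 were lower and 0 were called, with a median of -0.22, 0.12 in run 1 and -0.87 in run 2. Over all 204 probes 48.5% were lower. In run 1, 4 of the 6 were higher and in run 2 1 was, and 1 had the same sign in both runs. The median was -0.08 without day 14 replicate 3 and -0.06 without day 14 replicate 4. miR-150-5p of lymphocytes had -0.25 (SE 0.43) and miR-142-3p, found across blood lineages, -0.19 (SE 0.39). In run 1 these 2 had 0.72 and 0.32, and in run 2 -1.22 and -0.70. Summed levels of the list were 997 to 4169 normalized counts at day 14 and 914 to 2127 at day 17.

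For other cell types few markers had a probe. Of the 20 markers listed for the check of tissue identity, 13 had a probe, and the defining markers of skeletal and heart muscle, neurons and liver were not among the 204 probes. The epithelial miR-141-3p stayed between 37.1 and 56.9 normalized counts in all 8 samples (-0.31, SE 0.25). Only in day 14 replicate 4 did it lie above the sample's median of the probes without a bovine gene (56.9 against 42.2), so it may be background. miR-21-5p and miR-132-3p, both raised by luteinizing hormone in rodent ovarian cells, differed by -0.03 (SE 0.32) and -0.07 (SE 0.43). miR-21-5p had 1386 and 1555 against 2111 and 2517 in run 1, and 8269 and 5971 against 2666 and 6836 in run 2. Its days separated upward in run 1 and overlapped in run 2, and the differences were 0.65 and -0.72. The interval of -0.70 to 0.63 places its joint difference within 2-fold.

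**Figure D3:**
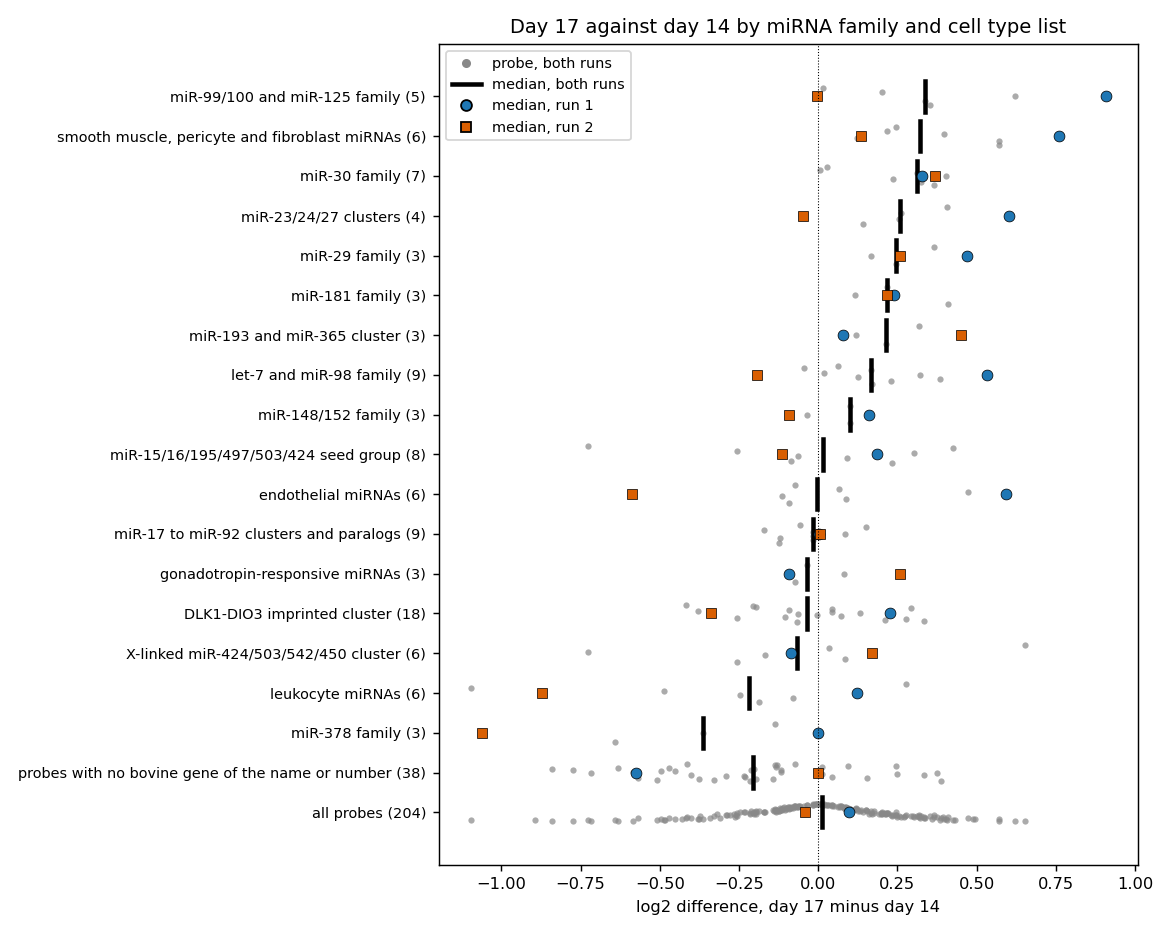
Log2 differences of day 17 minus day 14 for the members of each list with at least 3 measured probes (grey points; number of probes in brackets), with the median of both runs (black bar), of run 1 (blue circle) and of run 2 (orange square). The miR-30 and miR-181 families have near-equal medians in both runs, and the endothelial list has 0.59 and -0.59.

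Several families had every member on the positive side. The miR-30 family, which is broadly expressed, had 7 of 7 probes higher, 0 called and a median of 0.31, with 0.33 in run 1 and 0.37 in run 2. The median was 0.02 without day 17 replicate 4. At day 14 in run 1 the samples' medians of the probes without a bovine gene were 258 and 184. miR-30a-5p (111 and 144 normalized counts) and miR-30d-5p (95.6 and 131) lay below both, and miR-30b-5p (197 and 237) lay above in replicate 2 only. miR-30c-5p had 159 and 184 normalized counts at day 14 and 289 and 185 at day 17 in run 1, and 375 and 352 against 375 and 586 in run 2. Its value thus came from 1 higher day 17 sample in each run. The miR-181 family, which acts in lymphocyte and endothelial signalling, had 3 of 3 higher with a median of 0.22, and 0.24 and 0.22 in the runs. The median was 0.08 without day 14 replicate 3 and 0.52 without day 17 replicate 4. miR-181a-5p gave 0.41 (SE 0.33). It had 13130 normalized counts in day 17 replicate 3, where the other 3 day 17 samples had 5984 to 6515.

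The miR-29 family, known for repressing collagen genes, had 3 of 3 higher and a median of 0.25, which was -0.02 without day 17 replicate 4 and 0.06 without day 14 replicate 1. The miR-23/24/27 clusters had 4 of 4 higher and a median of 0.26, but 0.60 in run 1, -0.05 in run 2 and 0.09 without day 14 replicate 1. miR-27b-3p led them at 0.41 (SE 0.24), followed by miR-24-3p at 0.26, miR-23b-3p at 0.25 and miR-23a-3p at 0.14. The miR-193 and miR-365 cluster had 3 of 3 higher and a median of 0.21, from 0.11 to 0.41 with 1 sample left out. Its median was 0.08 in run 1 and 0.45 in run 2. The probe of miR-193a-5p and miR-193b-5p had -0.57 in run 1 and 0.81 in run 2. No member of these lists was called. Over all 204 probes 51.5% had a positive difference, and of the 51 with the highest counts 38 did. All 4 probes of the miR-23/24/27 clusters are among those 51.

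The miR-17 to miR-92 clusters, known for promoting proliferation, had joint differences close to 0, while 1 of the 9 probes had the same sign in both runs. Of 9 probes 2 were higher and 7 lower, with a median of -0.02 and values from -0.17 to 0.15, and all 9 intervals lay within 2-fold. miR-25-3p and miR-93-5p, neighbours in one cluster, had -0.02 and -0.06 jointly, with 0.63 and 0.56 in run 1 and -0.67 for both in run 2. miR-92a-3p went the other way, with -0.48 in run 1 and 0.78 in run 2. The miR-15/16 list, grouped by name and also holding miR-107 (0.23, SE 0.22), had 8 probes, with 4 on each side and a median of 0.01. Its members ranged widely, from miR-503-5p at -0.73 (SE 0.40) to miR-497-5p at 0.43.

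On the X chromosome, miR-503, miR-424, miR-450 and miR-542 form a cluster, and some of them are also in the miR-15/16 list. The cluster had the widest range among neighbouring genes, 1.38 log2 units over 6 probes. miR-503-5p had 1531 and 1798 against 1855 and 925 normalized counts in run 1, and 2512 and 9080 against 1588 and 3073 in run 2. The days overlapped in both runs, and without day 14 replicate 4 its value was -0.29. miR-542-5p stood at the other end. It had 289 and 322 against 210 and 399 in run 1, and 147 and 132 against 544 and 243 in run 2, so the days overlapped in run 1 (-0.07) and separated in run 2 (1.38). Its joint 0.65 was 0.29 without day 17 replicate 3 and 0.97 without day 17 replicate 1. The 3p arm of the same hairpin, miR-542-3p, had 0.03 (SE 0.31).

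The list for the imprinted DLK1-DIO3 cluster, whose miRNAs are expressed from the maternal chromosome, had 8 of 18 probes higher and 10 lower at day 17, with 0 called and a median of -0.03. It holds miR-342-3p, which lies outside the imprinted miRNA clusters, and without it 7 of 17 were higher and 10 lower, with a median of -0.06. Its 2 most abundant members were miR-127-3p at -0.07 (SE 0.29) and miR-379-5p, whose values of 308 and 271 against 604 and 435 in run 1 and 1270 and 1113 against 584 and 760 in run 2 gave 0.83 and -0.83. The days separated upward in run 1 and downward in run 2. The cluster's members ran from -0.42 to 0.33. The 3 measured miR-378 probes, which have a bovine gene of the same number only, were all lower with a median of -0.36, from 0 in run 1 to -1.06 in run 2.

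The 2 arms of a hairpin are cut from the same precursor. For 13 hairpins both arms were measured, and in 10 the arms had differences of the same sign, with a median gap of 0.07 log2 units between them. miR-455-5p and miR-455-3p had 0.49 and 0.43, miR-30a-5p and miR-30a-3p 0.32 and 0.36, and miR-423-5p and miR-423-3p 0.22 and 0.20. The widest gaps were those of miR-542 (0.62), miR-197 (0.47) and miR-574, whose 5p arm had -0.10 and 3p arm 0.32. For probes that read different hairpins within 10 kb of each other, in 31 groups of neighbours, the median gap over 146 pairs was 0.20, against 0.23 over all pairs of located probes. Pairs share probes, and related probes may share signal, so these gaps are descriptions.

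**Figure D4:**
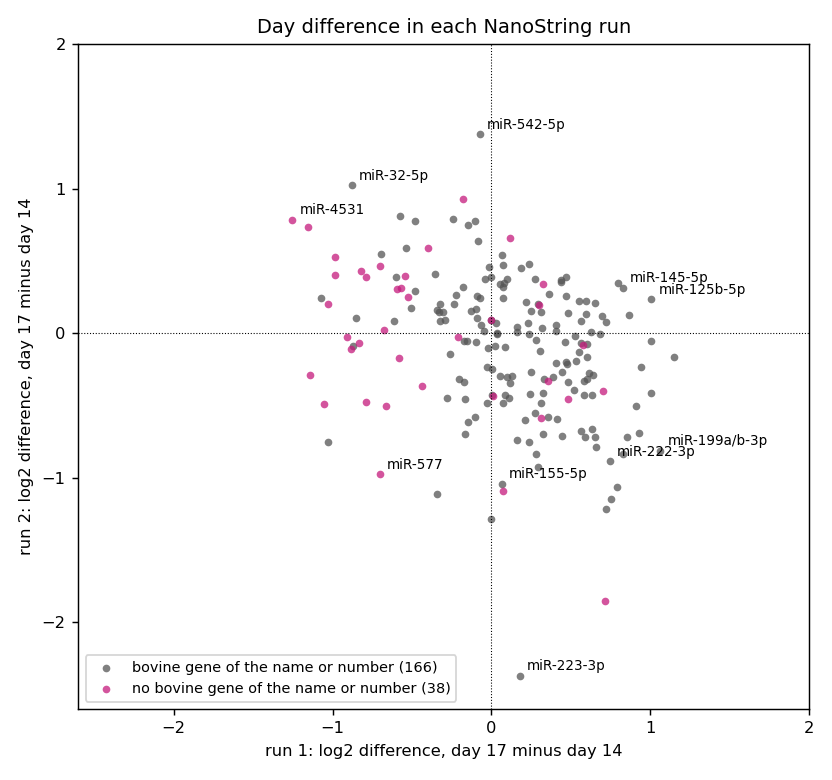
Log2 difference of day 17 minus day 14 in run 2 (vertical) against that in run 1 (horizontal) for the 204 probes, grey with and magenta without a bovine gene of the name or number. More probes lie in the quadrants of opposite sign (133) than in those of like sign (71).

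Set against each other, the runs showed opposite differences more often than like ones. Of 204 probes, 71 (34.8%) had the same sign in both runs, 43 higher and 28 lower, while 80 were higher in run 1 and lower in run 2 and 53 the reverse. Across probes, Pearson's r between the 2 runs' differences was -0.33; probes share samples and are not independent. It ran from -0.44 to -0.09 with each sample left out, and came nearest to 0 without day 17 replicate 3. For the difference between the day 17 effects of run 2 and run 1, limma called 0 of 204 probes (0%), with 31 (15.2%) at an unadjusted p under 0.05. Without day 17 replicate 4 it called 5, and without day 14 replicate 3 it called 1, which was miR-223-3p.

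The 3 probes with the smallest p in that test were miR-32-5p, miR-222-3p and miR-4531, each with adjusted p = 0.147. miR-32-5p had 129 and 85.0 against 53.8 and 59.1 normalized counts in run 1, and 40.6 and 29.1 against 59.5 and 84.7 in run 2. The days separated in both runs but in opposite directions, with -0.88 and 1.02. These are low values: in run 1 all lay below the samples' medians of the probes without a bovine gene (258, 184, 124 and 160). In run 2 only the 84.7 of day 17 replicate 4 lay above that median (40.4). miR-4531, without a bovine gene, had 710 and 387 against 177 and 272 in run 1 and 51.8 and 48.8 against 129 and 59.2 in run 2. The probe of miR-4454 and miR-7975, without a bovine gene and the fifth highest in mean count, had 5972 and 6761 against 16739 and 6493 in run 1, and 29853 and 26082 against 4408 and 13499 in run 2. Its joint difference was -0.57 (SE 0.46), and it was -0.07 without day 17 replicate 3 and -1.03 without day 17 replicate 1.

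**Figure D5:**
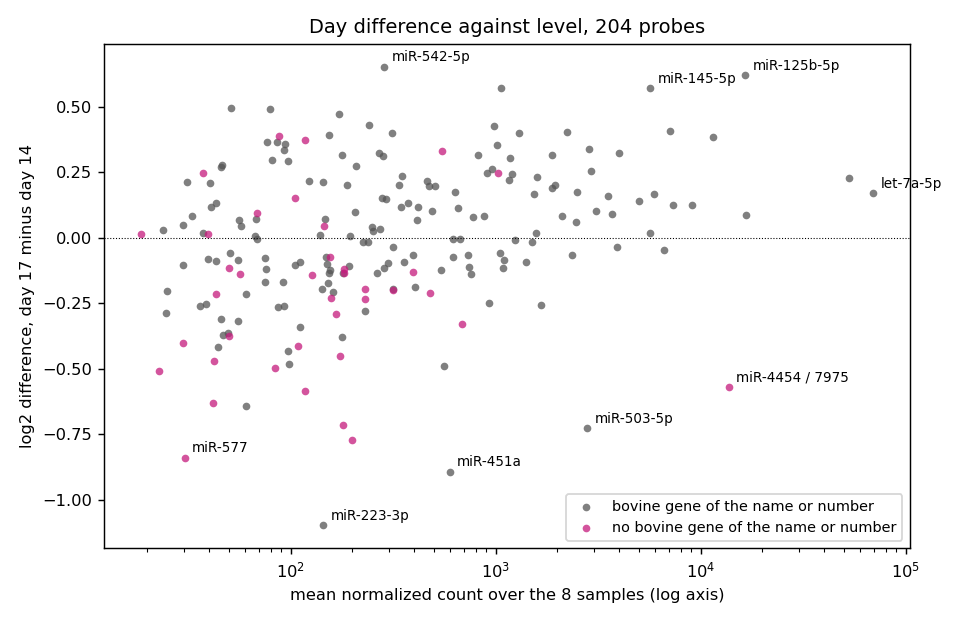
Log2 difference of day 17 minus day 14 (vertical) against the mean normalized count over the 8 samples (horizontal, log axis), grey with and magenta without a bovine gene of the name or number. Of the 51 probes with the highest counts 38 have positive differences, and of the 51 with the lowest 22.

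The sign of the difference also went with the level of the probe. Among the 51 probes with the highest counts, 38 had positive differences, with a median of 0.17. Among the 51 with the lowest counts 22 did, with a median of -0.08. The medians of the highest 51 were 0.52 in run 1 and -0.07 in run 2. Spearman's rho between level and difference was 0.32 across probes, 0.38 with run 1 alone, 0.01 with run 2 alone and 0.06 without day 14 replicate 1. As given above, that sample had the lowest total of the 8, and its part in the higher values of abundant miRNAs in run 1 was measured only by leaving it out.

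Values at the later days are given beside those at day 17 as a description. All 3 comparisons use the same day 14 samples and the probes were chosen by their day 17 values, so a like value on a later day does not show that a difference lasted. miR-145-5p had 0.57, 0.61 and 0.50 at days 17, 20 and 23 against day 14, and miR-125b-5p 0.62, 0.83 and 0.82. miR-542-5p had 0.65, 0.81 and 0.90, and miR-577 -0.84, -0.62 and -0.44. None of these 4 passed the adjusted threshold on any of the 3 days. miR-143-3p had 0.57, 0.27 and -0.50.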

How the data were processed

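MicroRNA values of 16 corpora lutea were read from 1 deposited table with 204 probes. The authors deposited them as normalized counts, a signal that is never negative. The sources used here do not give the counting software, probe panel, background correction or normalization, so the depth behind a value is unknown and no counting interval is given. All 16 columns were matched by name to sample titles. Values were transformed as log2(normalized count + 1), a scale that understates differences of low probes. All 204 probes passed a minimum of 20 in at least 4 samples. limma 3.58.1 in R 4.3.3 fitted day and run to all 16 samples (11 residual degrees of freedom), with a variance trend and a two-sided test of day 17 against day 14. P-values were adjusted by Benjamini-Hochberg over 204 probes, with 0.05 as threshold. Values per run and the test of their difference came from a second fit with 8 day-by-run groups. Single values per sample were tested by exact permutation within runs (5 quantities, smallest adjusted p = 0.833). The fit was tested on simulated data.

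Probe names were looked up in RefSeq's genes of ARS-UCD2.0: 155 probes had a bovine miRNA gene of the same name, 11 of the same number and 38 neither. No sequences were used. Of 30 lists, 17 had at least 3 measured members; they carry no test. The count without miR-342-3p was added after seeing the data. Named probes were those called, the 5 of smallest p in each direction, the 10 most abundant, the 2 most abundant of each list, the 3 of smallest p between runs, those without overlap and the cell type markers; other family members, arms and neighbours were named after their values were seen. Members and lists were chosen with earlier results of these data known. Nothing says whether replicates shared a source, so p-values measure the spread between these samples. Deviations from the day means went together for day 14 and day 17 samples that share a number (Pearson r of 0.32 to 0.79), as these numbers fix the run per the labels, and not once run was removed (-0.41 to 0.21). Alternatives covered run, samples, pseudocount, normalization, filters, background, variance model, replicate block and each sample left out.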

Additional observations from a re-analysis of the deposited data

Results flagged for a closer look

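In 7 cases 1 sample stood apart within its day, by a gap to the next sample that was large against the day's whole range. Chance gives this in about 5% of groups of 4 samples from 1 population, but each day holds 2 samples of either run and the comparison takes no account of the run, so 5% is only a guide. Over all probes and both days it was met in 28 of 408 groups (6.86%), 15 of them by day 17 replicate 4 on the high side. At day 14, replicate 4 was high for miR-223-3p (776 normalized counts), miR-503-5p (9080) and the probe of miR-181b-5p and miR-181d-5p (699). At day 17, replicate 4 was high for the smooth muscle miR-143-3p (2846) and for miR-21-5p (6836), replicate 3 for miR-181a-5p (13130), and replicate 2 for the epithelial miR-141-3p (49.2).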

How the results depend on the processing

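No probe was called at day 17 against day 14 in the fit reported, nor in any alternative listed for it except run 1 alone. That fit held the run 1 samples of all days, which shared an estimate of the spread, and compared 2 samples with 2. It called 5 probes, miR-125b-5p, miR-199a/b-3p, miR-4531, miR-522-3p and miR-548n, with adjusted p from 0.0347 to 0.0437 by limma. The cause was not tested. The 5 probes at an unadjusted p under 0.05 became 1 without the run term, 47 in run 1 alone, 12 in run 2 alone, 11 after quantile normalization, 10 after scaling to the 100 most abundant probes, 2 among probes with a mean of at least 200 and 2 among those with a bovine gene of the same name, where fewer were tested. With the replicate block there were 8 and no probe was called. With each sample left out there were 4 to 13. The test between runs called 0 to 5 probes, and 13 to 46 at the unadjusted threshold, with each sample left out, an alternative chosen after seeing the data. The 5 calls, without day 17 replicate 4, were miR-199a/b-3p, the probe of miR-4454 and miR-7975, miR-4531, miR-548n and miR-99a-5p. The median of the let-7 and miR-98 list was -0.03 after quantile normalization. Subtracting each sample's median of the probes without a bovine gene also moved list medians. Probes were kept if more than 1 above it in at least 8 of the 16 samples, and remainders under 1 were set to 1. miR-30c-5p had 159 and 184 at day 14 in run 1, where these medians were 258 and 184. Both values were thus set to 1, and the difference of miR-30c-5p went from 0.40 to 2.71. With such set values included, the median of miR-30 moved from 0.31 to 1.51 and that of miR-148 and miR-152 from 0.10 to 1.41. Others moved as well: smooth muscle from 0.32 to 0.63, DLK1-DIO3 from -0.03 to 0.54, miR-17 to miR-92 from -0.02 to 0.41, X-linked from -0.07 to 0.13 and leukocyte from -0.22 to 0.23. Depth is unknown, and the median residual SD was 0.43, 0.46, 0.44 and 0.40 log2 units from the 51 probes of lowest to the 51 of highest count.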
